A study of Mus musculus with 12 samples.

Results

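Host genes of small nucleolar RNAs (snoRNAs) were followed in LPS-activated mouse splenic B cells under DNA damage, with and without inhibition of the ATM kinase. The set was Gas5, Snhg1, Snhg3, Snhg4, Snhg5, Snhg6, Snhg7, Snhg8, Snhg12 and Snhg15, and its members were the rows of the normalized count table that carry one of these 10 names. Of the 29486 rows, 6 did: Gas5, Snhg4, Snhg5, Snhg6, Snhg7 and Snhg12. Snhg15 was found by its Ensembl identifier, ENSMUSG00000085156, under the name Gm11974, and is given beside the 6 as a seventh gene. The levels of Snhg1, Snhg3 and Snhg8 were not analysed here, and these genes enter only the counts of start sites, promoters and nested snoRNAs.

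A snoRNA host gene is transcribed as a long RNA from which snoRNAs are cut out of the introns, while the exons are spliced into a separate RNA. Box C/D snoRNAs guide 2′-O-methylation and box H/ACA snoRNAs guide pseudouridylation of ribosomal and other RNAs. The spliced RNAs of several hosts, Gas5 among them, begin with a run of pyrimidines as ribosomal protein mRNAs do, and are known to be cleared by nonsense-mediated decay when they are translated. Gas5, growth arrest specific 5, was named for its accumulation in cells that stop growing.

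Total cellular mRNA was sequenced in 12 libraries of primary B cells from C57BL/6Babr mice, 4 libraries for each of 3 conditions. In the LPS condition the cells had LPS at 10 μg/ml for 48 h. In the second condition, hereafter etoposide, 48 h of LPS was followed by 20 μM etoposide, a topoisomerase II inhibitor that causes double-strand breaks, for 4 h. In the third, hereafter KU55933 + etoposide, LPS ran for 47 h before the ATM kinase inhibitor KU55933 was added at 10 μM for 1 h, and 20 μM etoposide then followed for 4 h. All cells thus carried LPS activation. Whether the LPS cells were also kept for the extra 4 h is not in the labels, and no cells received KU55933 without etoposide. The Illumina indexes of each condition were used in no other condition, so index and condition cannot be told apart.

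The deposited value of a gene in a library is the fitted mean of its condition multiplied by the size factor of the library. The 4 columns of a condition were proportional for every gene, with deviations of at most 1.4e-14 on the log2 scale. They hold no spread between replicates, and each gene has 1 level per condition, the same in all 4 libraries after scaling. No test was made on them, the standard errors in the authors' own comparisons were not used, and no difference below was set against replicate error. A difference is given as log2(level + 1) between conditions, and a gene is called past the fold at 1.5-fold or more. The column totals ranged from 20739978 to 23935658 in LPS, from 22523516 to 30575195 with etoposide and from 20400994 to 25052093 with KU55933 + etoposide. A level of at least 10 in 1 condition was reached by 15581 genes, all 6 named hosts and Snhg15 among them. Cdkn1a, the p53-induced cyclin-dependent kinase inhibitor, stood at 418.3, 13323 and 10736 in the 3 conditions, in the order given above. The 6 B cell markers were all kept, and their summed level was 135759, 72475 and 82180. Summed T cell markers stood between 8.84 and 9.78 with 0 of 6 kept, macrophage markers between 424.3 and 463.8 with 6 of 6 kept, and red blood cell markers between 45.7 and 90.3 with 2 of 4 kept. Within the macrophage sum, log2 differences of etoposide against LPS went both ways. Cd14 (5.26 and 24.0, 2.00), Csf1r (4.24 and 10.2, 1.10) and Cd68 (106.3 and 209.4, 0.97) were past the fold higher. Itgam (223.9 and 127.8, -0.80) was past it lower. Cd14 and Csf1r were under 10 in LPS and were kept only through conditions with etoposide, so their rises start near the floor. The part of these shifts in the results below was not tested, and in bulk RNA fewer cells of a type and less RNA per cell cannot be told apart.

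The snoRNAs that the hosts release are shown first, because they are what defines the hosts and tell the genes apart. They are mouse sequences of GENCODE M21 on GRCm38, read 5′ to 3′ on the strand of the host. In box C/D snoRNAs the capitals mark the C box core (TGATGA) and the D box (CTGA), and in box H/ACA snoRNAs the ACA box near the 3′ end.
Snord47 (Gas5): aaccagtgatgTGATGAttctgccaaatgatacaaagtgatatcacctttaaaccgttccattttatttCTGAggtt
Snord50a (Snhg5): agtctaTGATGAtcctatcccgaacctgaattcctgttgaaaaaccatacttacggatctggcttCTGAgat
Snord50b (Snhg5): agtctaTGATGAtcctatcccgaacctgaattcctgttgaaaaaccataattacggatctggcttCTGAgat
Snord87 (Snhg6): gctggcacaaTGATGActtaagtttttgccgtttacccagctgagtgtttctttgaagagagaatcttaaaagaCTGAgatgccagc
Snord99 (Snhg12): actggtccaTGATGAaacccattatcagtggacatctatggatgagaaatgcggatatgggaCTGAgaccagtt
Snora61 (Snhg12): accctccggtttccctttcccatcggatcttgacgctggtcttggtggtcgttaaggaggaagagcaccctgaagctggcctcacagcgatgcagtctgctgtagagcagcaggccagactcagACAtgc
Snora9 (Snhg15): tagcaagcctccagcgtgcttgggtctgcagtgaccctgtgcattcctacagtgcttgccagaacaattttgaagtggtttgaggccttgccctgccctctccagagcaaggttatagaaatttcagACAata
Snord50a and Snord50b are both 72 bases long and differ at 1 position, C50A, counted from the 5′ end with the base of Snord50a first.

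The hosts differ in how many small RNAs they hold. Gas5 lies at chr1:161034422-161038539 on the plus strand of GRCm38 and has 10 small RNA genes nested on its strand, with Snord80 annotated at 2 overlapping positions. Snhg12, at chr4:132308623-132311024 on the plus strand, holds 5, which are Snora44, Snora61, Snord99 and Snora16a at 2 overlapping positions. Snhg5, at chr9:88521050-88522929 on the minus strand, holds the pair Snord50a and Snord50b. Snhg6, at chr1:9941959-9944118 on the minus strand, holds Snord87 in an intron, and Snhg15, at chr11:6525591-6528760 on the minus strand, holds Snora9. By RefSeq, Snhg4 spans 4907 bases with Snora74a inside it, and Snhg7 spans 3069 bases with Snora17 and Snora43. The row named Snhg7 carries an identifier that GENCODE M21 gives to Snora43, a snoRNA gene of 139 bases, so its value rests on the name in the table alone.

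**Figure D1:**
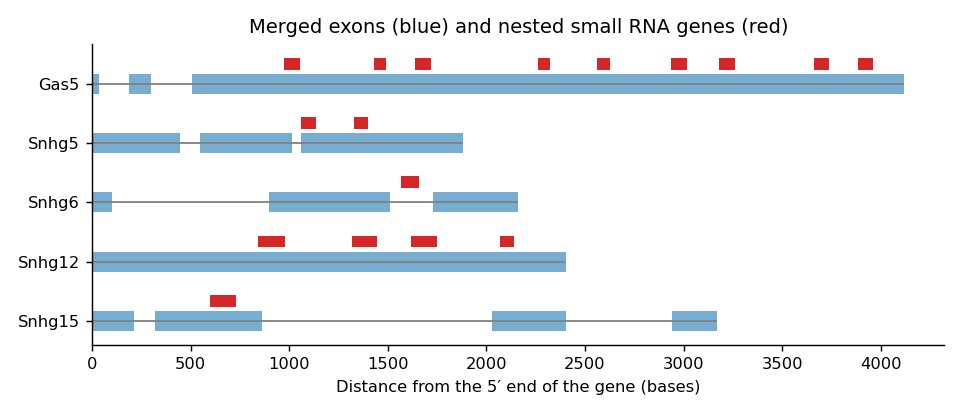
Merged exons of all GENCODE M21 transcripts (blue) and nested small RNA genes on the same strand (red) of the 5 hosts with a usable GENCODE entry, along the distance from the 5′ end of the gene in bases. Snord87 of Snhg6 lies in an intron, while in Gas5, Snhg5, Snhg12 and Snhg15 each red box lies over a merged exon, since transcripts that keep introns are included.

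Mature snoRNAs lack the poly(A) tail that the library preparation selects for. Few nested ones had a row, and the reason for this was not tested. Of the 30 small RNA genes nested in the 8 hosts with a GENCODE entry, Snhg1, Snhg3 and Snhg8 included, 3 had a row. Snora16a of Snhg12 stood at 29.4 in LPS, 48.3 with etoposide and 35.4 with KU55933 + etoposide. Snord87 of Snhg6 stood at 22.3, 12.4 and 11.3, and Snora24 of Snhg8 at 49.4, 54.7 and 56.2. Snord87 thus went from 22.3 to 11.3 where its host Snhg6 went from 1190 to 1997, on counts per gene that do not tell a snoRNA from a host fragment. Of 37 snoRNA genes kept in the whole table, 1 was past the fold higher (2.70%, against 21.0% of all genes kept) and 8 were lower (21.6%, against 17.9%) with etoposide against LPS. With KU55933 + etoposide against etoposide, 3 were higher (8.11%, against 7.36%) and 1 lower (2.70%, against 11.4%).

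The starts of the spliced RNAs are the second feature that several hosts share. In GENCODE M21, some transcripts open with C and run on in pyrimidines for at least 5 bases. At least 1 such transcript is listed for 4 of the 5 hosts that have both a level and a GENCODE entry. Most listed transcripts of each of these 4 hosts open otherwise, and the share of all genes by this rule is not given here. The first 20 bases of 1 transcript with the feature are shown for each, chosen among several starts, with the pyrimidine run in capitals.
Gas5: CTTTCggagctgtgcggcat
Snhg5: CTTTTacgacggagcctaag
Snhg6: CTTTCTCggcagcgccgtag
Snhg12: CCTTTCTCgcttcatccgcg
Among RefSeq start sites (GRCm38.p6), a C followed by pyrimidines to a run of at least 5 was present at 3 of 9 starts of 8 host symbols, or 33.3%, which were starts of Gas5, Snhg7 and Snhg8. The RefSeq starts of Snhg5 and Snhg12 did not have it, and Snhg6 was not among the 8 symbols, so of the 4 hosts shown above only Gas5 had it by both annotations. The share was 19.2% of the starts of ribosomal protein genes and 2.51% of all 32851 starts. It was 7.41% at the starts of other noncoding hosts by annotation.

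In the 300 bases around these RefSeq starts, from 250 before to 50 after, 3 motifs were searched on both strands. TGACGTCA, the cyclic AMP response element, was in 2 of 9 host promoters, those of Gas5 and Snhg15, against 1.79% of all promoters. It was in 8.22% of ribosomal protein gene promoters and in 0 of 27 promoters of other noncoding hosts by annotation. The E-box CACGTG was in the Snhg15 promoter alone, 1 of 9, against 7.15% of all promoters. The p53 decamer was in 0 of 9, against 8.36% of all promoters, and its letters are searched for in this window only. A match is a description of these letters and not of a bound factor.

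In LPS-activated cells without damage, Gas5 had the highest value of the 5 hosts per kilobase of merged exon. Its level was 10326. Its mean over the 3 conditions was above that of 98.4% of the genes kept, a rank on counts not corrected for gene length. Per kilobase of merged exon, Gas5 stood at 2746, Snhg5 at 1228, Snhg6 at 1038, Snhg15 at 740.3 and Snhg12 at 648.5. Merged exons count transcripts that keep introns, so this order rests on lengths of 3760 bases for Gas5 and 2402 bases for Snhg12, where single transcripts run from 346 to 2556 bases and from 422 to 1538 bases. On the same lengths Gas5 stayed first in all 3 conditions, and Snhg15 was second with etoposide, at 1668 per kilobase.

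**Figure D2:**
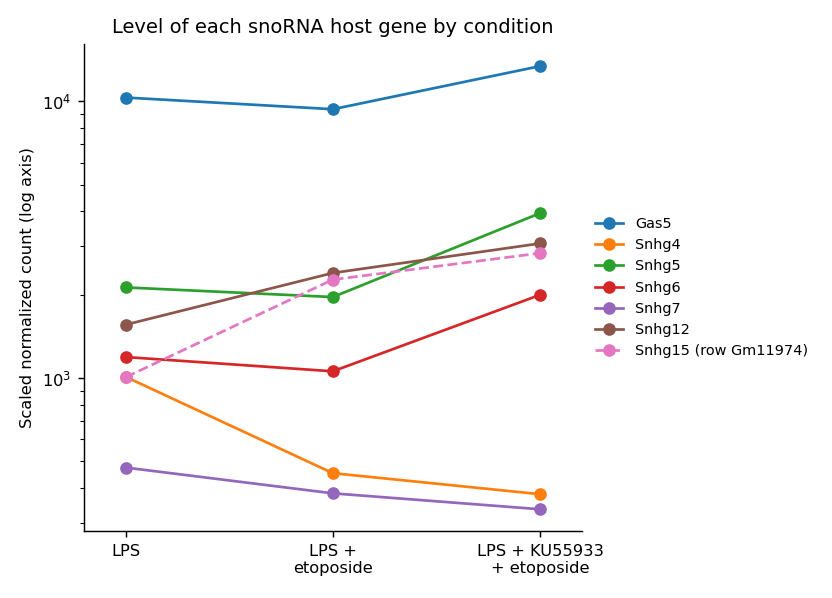
Scaled normalized count of each host (log axis) in the 3 conditions, 1 fitted level per condition, with Snhg15 (dashed) read from the row Gm11974. Snhg12 and Snhg15 climb with etoposide and Snhg4 drops. Gas5, Snhg5, Snhg6, Snhg12 and Snhg15 are highest in the third condition, and Snhg4 and Snhg7 are lowest there.

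Etoposide moved the hosts in different directions. Among the 6 named hosts, 1 was past 1.5-fold higher, against 21.0% of all genes kept, and 1 was past 1.5-fold lower, against 17.9%. The median log2 difference was -0.16, with -0.05 over all genes kept. With Snhg15 added, 2 of 7 were past the fold higher and the median was -0.14. These counts lie near the background of all genes.

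Snhg15, host of Snora9, had the largest rise of the 7. Its level was 1006 in LPS and 2267 with etoposide, a log2 difference of 1.17 or 2.25-fold, above that of 88.4% of genes kept. Over all scalings other than the unscaled columns its difference ranged from 1.12 to 1.34.

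Snhg12, host of Snora16a, Snora44, Snora61 and Snord99, stood at 1558 in LPS and 2397 with etoposide. The log2 difference was 0.62, or 1.54-fold, just past the fold. It ranged from 0.57 to 0.79 over scalings and fell under 1.5-fold when the factors were set on all rows.

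Snhg4, host of Snora74a, moved the opposite way. Its level was 1009 in LPS and 452.4 with etoposide, and the log2 difference of -1.16 (2.23-fold lower) was below that of all but 4.49% of genes kept. The range over scalings was -1.21 to -0.99.

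The other 4 hosts were within 1.5-fold. Gas5, with the largest number of nested snoRNAs, stood at 10326 in LPS and 9370 with etoposide (-0.14). Snhg5 stood at 2125 and 1961 (-0.12), Snhg6 at 1190 and 1057 (-0.17) and Snhg7 at 474.0 and 382.5 (-0.31). The sign for Gas5 and Snhg5 turned with the scaling, since their ranges were -0.19 to 0.21 and -0.17 to 0.05. Scaling by library totals moved the median of all genes from -0.05 to 0.11 in this comparison, and the hosts with it.

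KU55933 added before etoposide left 2 of the 6 named hosts past 1.5-fold higher than etoposide alone, against 7.36% of all genes kept. None of the 6 was past the fold lower, against 11.4% of all genes. The median log2 difference of the 6 was 0.44, with -0.03 over all genes kept, and 4 of the 6 were higher. The 2 comparisons that involve etoposide alone share its 4 libraries, so the levels are given side by side and no likeness of the changes is drawn.

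Snhg5, host of the Snord50 pair, moved most. It stood at 1961 with etoposide and 3943 with KU55933 + etoposide, a log2 difference of 1.01 or 2.01-fold, above that of 98.2% of genes kept. The range over scalings was 0.99 to 1.12.

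Snhg6, host of Snord87, followed with 1057 and 1997, a log2 difference of 0.92 or 1.89-fold, above 97.6% of genes kept. The range over scalings was 0.90 to 0.98. Snhg6 shares 127 exon bases, 11.1% of its exons, with Mcmdc2 on the opposite strand. The level of Mcmdc2, a meiotic homologue of the replicative helicase, was 56.8 in LPS, 102.5 with etoposide and 92.0 with the inhibitor added. Its log2 difference was -0.15 against etoposide, where Snhg6 was higher, and 0.69 against LPS, where Snhg6 was also higher, and its part in the Snhg6 value was not tested.

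Gas5 stood just under the fold, at 9370 and 13413, with a log2 difference of 0.52 or 1.43-fold, above 90.7% of genes kept, and a range over scalings of 0.50 to 0.55. Its antisense neighbour Zbtb37, a zinc finger gene, shares 0 exon bases with it. Snhg12 (2397 and 3064, 0.35) and Snhg15 (2267 and 2826, 0.32) were also higher within 1.5-fold. Snhg4 (452.4 and 379.8, -0.25) and Snhg7 (382.5 and 335.0, -0.19) were lower within 1.5-fold.

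**Figure D3:**
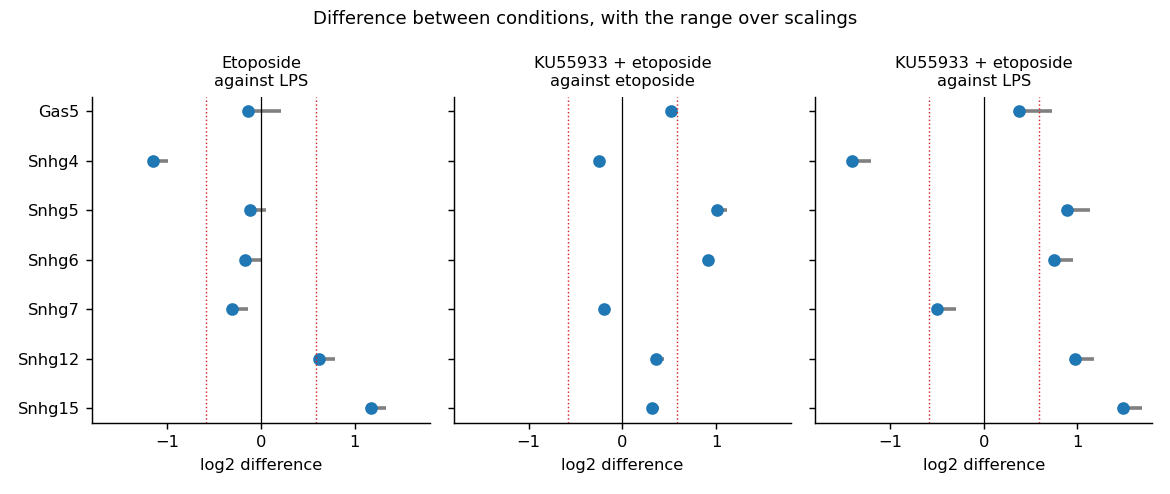
Difference in log2(level + 1) of each host in the 3 comparisons (points) with the lowest and highest value over scalings other than the unscaled columns (grey bars). Dotted lines mark 1.5-fold in either direction, with Snhg5 and Snhg6 past it in the middle panel and Snhg4 and Snhg15 on opposite sides in the left panel.

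Against LPS alone, KU55933 + etoposide left 3 of the 6 named hosts past 1.5-fold higher, where 19.5% of all genes kept were. 1 of the 6 was past the fold lower, against 16.9% of all genes. The median log2 difference of the 6 was 0.56, with -0.01 over all genes kept. With Snhg15 included, 4 of 7 were past the fold higher and the median was 0.75.

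Snhg15 reached 2826 from 1006, a log2 difference of 1.49 or 2.81-fold. Snhg12 reached 3064 from 1558 (0.98), Snhg5 reached 3943 from 2125 (0.89) and Snhg6 reached 1997 from 1190 (0.75). Snhg4 went from 1009 to 379.8, a log2 difference of -1.41 or 2.65-fold lower, below all but 2.45% of genes kept. These 5 hosts stayed past the fold under every scaling tried. Gas5 (10326 and 13413, 0.38) and Snhg7 (474.0 and 335.0, -0.50) did not pass it, and Gas5 passed it under quantile normalization at 0.73.

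The related gene groups show where the named hosts stand. Between KU55933 + etoposide and etoposide, 0 of 28 listed protein-coding snoRNA hosts kept were past the fold in either direction. Their median log2 difference was -0.04. Of all genes kept, 7.36% were past the fold higher and 11.4% lower. This list was chosen by name and includes ribosomal protein genes. Of 226 protein-coding hosts kept by annotation, 3 were past the fold higher (1.33%) and 14 lower (6.19%), with a median of -0.08. With etoposide against LPS, 0 of the 28 listed hosts were past the fold higher and 3 lower (10.7%). By annotation, 21 of 226 were higher (9.29%) and 36 lower (15.9%), against 21.0% and 17.9% of all genes kept. Among the 28, the largest falls were those of Nop58 (5810 and 3412, -0.77) and Wdr43 (5702 and 3378, -0.76). The largest rise, within the fold, was that of Eef1b2, a translation elongation factor, from 25981 to 29223 (0.17). Ribosomal protein mRNAs are known to open with pyrimidines, though only 19.2% of the RefSeq starts of these genes met the rule above. Of the 79 ribosomal protein genes kept, 0 were past the fold higher with KU55933 + etoposide against etoposide and 1 was lower. Their median was -0.02. Snhg5, at 1.01, lay above the highest of these 79, which was 0.19, and so did Gas5, Snhg6, Snhg12 and Snhg15.

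Other noncoding genes that hold a snoRNA by annotation had 22 of 35 kept. Between KU55933 + etoposide and etoposide, 4 were past the fold higher (18.2%, against 7.36% of all genes kept). In the same comparison 3 were lower (13.6%, against 11.4%). The 4 higher, named after their values were seen, were 2410006H16Rik (2537 and 5544, 1.13), 1110038B12Rik (1850 and 3112, 0.75), 1500012F01Rik (4200 and 6779, 0.69), which GENCODE M21 names Zfas1, and Epb4.1l4aos (242.5 and 375.9, 0.63). The 3 lower, also named after their values were seen, were A430035B10Rik (186.3 and 120.3, -0.63), 9430037G07Rik (52.98 and 28.8, -0.86) and Gm28496 (19.9 and 9.41, -1.01). Of the other Snhg genes with a mean level of at least 100, Snhg17 (1100 and 1505, 0.45) and Snhg20 (210.7 and 302.5, 0.52) were higher within the fold, and Snhg14 (888.3 and 814.5, -0.12), a long transcript over imprinted snoRNA clusters, was lower within it. Noncoding genes without a snoRNA and with a mean level of at least 100 numbered 256, of which 8.98% were past the fold higher and 11.7% lower.

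**Figure D4:**
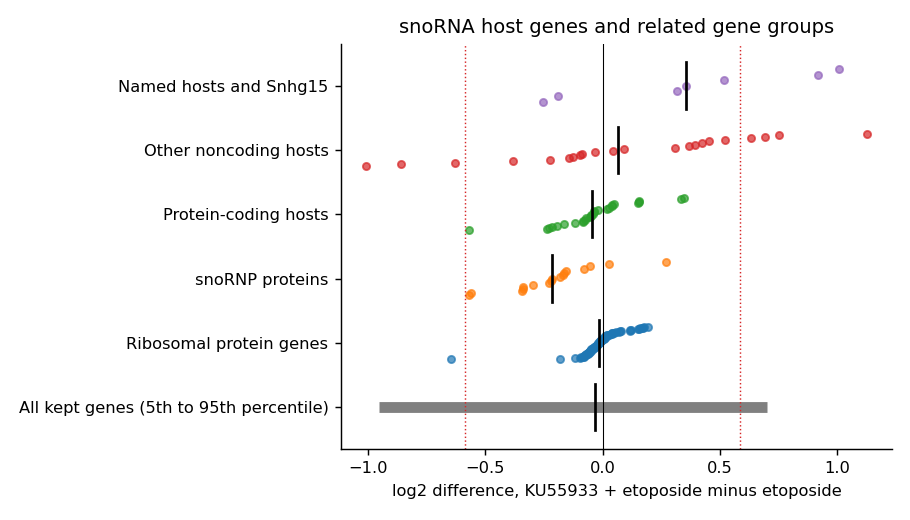
Difference in log2(level + 1) between KU55933 + etoposide and etoposide for single genes of 5 groups (points, group median as a black line) and for all genes kept (grey bar, from -0.95 at the 5th to 0.70 at the 95th percentile). Dotted lines mark 1.5-fold, which the 28 listed protein-coding hosts and the snoRNP proteins do not pass on either side. Some protein-coding hosts by annotation, not drawn, do pass it.

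The proteins that assemble snoRNAs into particles had negative medians in both damaged conditions against LPS. With etoposide, 0 of 17 kept were past the fold higher and 4 lower (23.5%, against 17.9% of all genes kept), with a median log2 difference of -0.37. Ruvbl1, an ATPase of the assembly machinery, went from 2391 to 1347 (-0.83), and Nop58, a core box C/D protein whose own gene hosts snoRNAs, from 5810 to 3412 (-0.77). With KU55933 + etoposide against LPS, 9 of 17 were past the fold lower (52.9%, against 16.9% of all genes kept), with a median of -0.60. The named hosts did not share one direction in the same comparison, with 4 of 6 higher and 2 lower.

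Among the 16 nonsense-mediated decay factors kept, 2 were past the fold higher and 2 lower with etoposide, 12.5% each way against 21.0% and 17.9% of all genes kept. Upf3b, which links the exon junction complex to decay, went from 1656 to 3055 (0.88) and then stood at 2138 with KU55933 + etoposide. Smg6, the endonuclease of the pathway, went from 1603 to 891.9 (-0.85) and stood at 908.6. The relation of these levels to the hosts was not tested.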

How the data were processed

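Total mRNA of 12 libraries was sequenced by the authors. According to the submitters' processing notes, reads were trimmed with Trim Galore and cutadapt 1.2.1, mapped with TopHat2 2.0.12 to GRCm38, counted with HTSeq and fitted with DESeq2 1.6.3. The HTSeq strand setting is not given in the sources used here. The authors deposited normalized counts as a signal per library, which equals the fitted mean of a condition times the size factor. Their 3 comparison files hold fold changes, standard errors and p-values, which were not used, apart from the mean signal of 1 file.

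Levels were scaled with median-of-ratios factors on the 19515 rows of at least 1 in every column. Computation used Python 3.11.15, numpy 2.4.6, pandas 2.3.3 and matplotlib 3.10.9, with a pseudocount of 1, a filter of at least 10 in 1 condition and a 1.5-fold call. The planned limma fit could not be made on fitted means. The functions were tested on simulated data. Exon lengths and snoRNAs came from GENCODE M21 and start sites from RefSeq GRCm38.p6.

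The members, lists and comparisons were chosen with earlier results of these data known. All members are named, with, of each other list, up to 2 genes at either end in etoposide against LPS with a mean level of at least 100. Alternatives were TMM factors (trims of 30% and 5%), library totals, quantile normalization, columns as deposited, pseudocounts, filters, fold calls and each library left out. Added after seeing the data were factors matched to the authors' mean count, factors on all rows or on rows of at least 10, and Snhg15 matched by identifier.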

Additional observations from a re-analysis of the deposited data

How the results depend on the processing

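No paired analysis was possible because the columns of a condition are proportional and hold no spread between replicates. For the same reason the depth of a library limits no value here in a way these columns can show. For the 6 named hosts, the median log2 difference of etoposide against LPS was 0.011 with library totals and 0.22 in the columns as deposited, against -0.16. The number past the fold higher in this comparison was 0 at 2-fold and 0 with factors on all rows, and 2 with Snhg15 matched by identifier. In KU55933 + etoposide against etoposide, 4 were higher past the looser fold call tried, which put the median of 0.44 past the call, and 1 was past 2-fold. Against LPS, the median of 0.56 lay under the 1.5-fold line and was past it at 0.77 with library totals, 0.80 with quantile normalization, 0.83 in the columns as deposited, 0.59 with the authors' mean count, 0.64 with factors on rows of at least 10 and 0.75 with Snhg15. At the looser fold call that median of 0.56 was past the call and 2 hosts were lower, and at 2-fold 0 were higher. Shares of all genes kept are given at 1.5-fold in the main scaling only. The counts under other calls and scalings therefore have no background beside them, and nothing is read from them about the hosts. No difference past 1.5-fold changed sign under any alternative. Values for single hosts were counted under the other scalings, pseudocounts and fold calls, with the columns as deposited left out. Of these, 195 kept their sign and side of the fold, 4 changed sign within the fold, 5 passed it and 6 lost it. The 4 were Gas5 and Snhg5 in etoposide against LPS. In the columns as deposited, Gas5, Snhg5, Snhg6 and Snhg7 changed sign within the fold in that comparison. There Gas5 also passed the fold in KU55933 + etoposide against LPS, at 0.64. Leaving out a library or changing the filter could hardly move a host, since the columns are proportional and every host is well above the filters, and these settings say nothing of stability.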
